A study of Bos taurus with 2 samples.

Results

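The genes described here are 10 bovine genes that build, load and regulate MHC class II molecules in whole blood of Holstein cattle. They are BOLA-DRA and BOLA-DRB3, BOLA-DMA and BOLA-DMB, BOLA-DOA and BOLA-DOB, CD74, CTSS, IFI30 and CIITA. A probe was taken when its gene name on the array, or the gene of its RefSeq accession, was one of the 10. This gave 25 probes of 43653 distinct probes, and 10 of 16959 named genes. The study hybridised Cy3-labelled RNA from 1 blood specimen of low feed efficiency and 1 blood specimen of high feed efficiency, each to 1 Agilent bovine oligonucleotide array. Animals of low feed efficiency have a high residual feed intake, meaning that they eat more than body size and production call for. Both specimens are Holstein whole blood, and the labels used here give no treatment, time, age or number of animals per specimen. With 1 array per group there is no test and no p-value, and the number of arrays limits the precision.

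MHC class II molecules are pairs of an alpha and a beta chain that carry peptides from the endosome to the cell surface, where CD4 T cells read them. The invariant chain holds the groove closed on the way, proteases trim it, and DM swaps its last fragment for a peptide while DO restrains DM. In blood the pathway is known mainly from B cells, monocytes and dendritic cells, and activated bovine T cells also carry class II. The transactivator CIITA switches these genes on together, through a complex of RFX and NF-Y proteins on their promoters.

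All 10 genes lay below the median difference of all 10339 measured genes, on the side of lower signal in low feed efficiency. A difference is the log2 intensity of the low minus that of the high efficiency array, each first divided by its 75th percentile. "Relative" values are these differences minus the median of all genes, which was -0.04. Where a gene had several probes, the brightest one with signal above background on each array stood for it. The 10 relative differences ran from -0.37 for IFI30 to -0.19 for CTSS, with a median of -0.32 against 0 for all genes by definition. By that definition 50% of all genes lay below the median, and all 10 members lay below the lower quartile of -0.18. The 10 genes were chosen with earlier results of these data known. Their contrast with all genes is therefore a description and not independent evidence. Without subtracting the median, all 10 lay below 0, as did 55.6% of all genes. The SD over the 10 genes was 0.07 (up to 0.14 over the alternatives, and 0.11 with the mean over probes), beside 0.33 over all genes and 0.25 over the brightest quintile, which holds 7 of the 10. No member was 2-fold apart, against 0.938% of all genes (0.368% higher and 0.571% lower). By its brightest probe none was 1.5-fold apart either, against 5.81% of all genes, of which the lower side made up 3.13%.

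All measured probes of a member lay on the same side of the median. Of the 25 probes, 24 were above background on both arrays, and all 24 lay below the median of all genes, where 48.7% of all named probes lay. Their relative differences ran from -0.71 to -0.02 with a median of -0.30. None of the 24 was 2-fold apart, against 1.03% of named probes. The dimmer IFI30 probe and the dimmest CD74 probe had ratios of low over high of 0.59 and 0.64, past 1.5-fold. The share of named probes past 1.5-fold was not counted. Each of the 8 members with several such probes had every probe below the median, which held for 28.4% of all genes with 2 or more probes. Neither this share nor the 48.7% of named probes was matched for signal strength. Of the genes in the brightest quintile, 64.8% lay below the median of all genes. Probes of a gene share the same 2 RNA samples, so they check the measurement and not the condition. The log2 difference between spots of one probe had an SD of 0.10 over 12 bright probes and 0.23 over 24 dim ones. BOLA-DOB and CIITA were read by dim probes, the others by bright ones at their brightest probe.

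**Figure D1:**
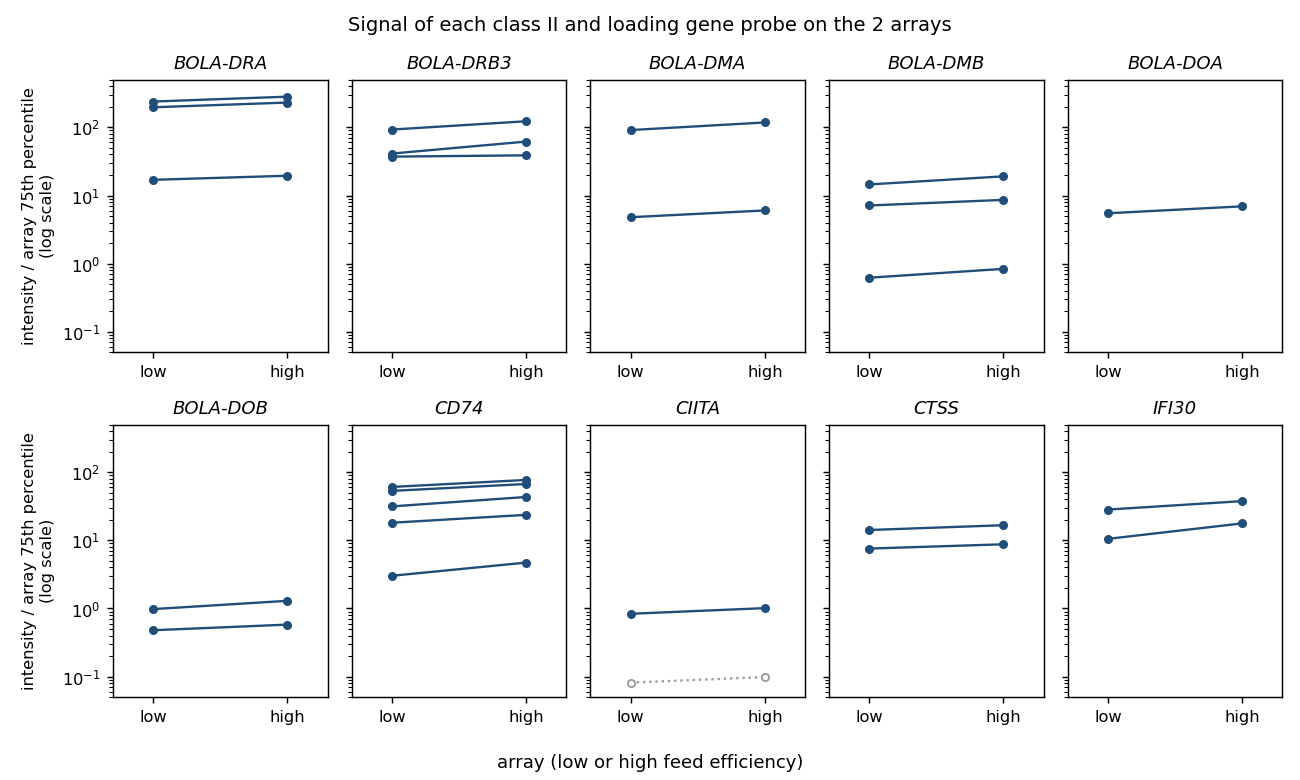
Each panel is a gene and each line a probe, drawn from the low to the high feed efficiency array; the y axis is the intensity divided by the array's 75th percentile, on a log scale. Every solid line ends higher on the high feed efficiency array; the open points are the CIITA probe below background on both arrays.

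BOLA-DRA encodes the nearly invariant alpha chain of the DR molecule. Its brightest probe had an intensity of 23456 for low and 22858 for high feed efficiency. The other probes read 19314 against 18740 and 1666 against 1580. All 3 were thus slightly brighter in low feed efficiency before scaling and lower after it. Relative to all genes they had -0.20, -0.19 and -0.16, a range of 0.04 that is smaller than the spot error. The dimmest of these probes crossed to 0.02 in 1 of 13 alternatives. The brightest spot was drawn with 120 pixels on the low efficiency array and 80 on the high efficiency array, and its pixels had a coefficient of variation of 56.5% against 21.9%. With the pixel mean in place of the median BOLA-DRA had -0.53, with normexp, a model-based background correction, -0.43, and with loess normalization -0.09. The brightest spot was unflagged, and so not flagged good, on both arrays. With only spots flagged good BOLA-DRA had -0.16.

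BOLA-DRB3 encodes the DR beta chain, the most polymorphic class II chain of cattle. Its probes disagreed most among the members. The brightest read 9099 for low and 9957 for high feed efficiency, a relative difference of -0.37. A probe of the same reference transcript read 4046 against 5011, or -0.54. The brightest spot was unflagged on the low efficiency array, and with only spots flagged good BOLA-DRB3 had -0.54. A probe designed on another cDNA record read 3646 against 3150, or -0.02, and was the only member probe within 0.1 of the median. These differences spanned 0.52, which exceeds the spot error of bright probes. The probe of the other cDNA record kept its sign under 8 of 13 processing alternatives, while the other DRB3 probes lay below the median wherever they were measured. Whether they also bind transcripts of BOLA-DRB2, the neighbouring DRB gene, was not tested.

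BOLA-DMA and BOLA-DMB encode the DM dimer, which frees the groove for peptide. BOLA-DMA read 8947 for low and 9558 for high feed efficiency at its brightest probe and 471 against 489 at the other. Relative differences were -0.33 and -0.29. BOLA-DMB read 1425 against 1549, 700 against 699, and 61 against 68. Its relative differences were -0.36, -0.23 and -0.39. For both genes the probes lay within 0.16 of each other, and both chains of the dimer had almost the same value by their brightest probe.

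BOLA-DOA and BOLA-DOB encode the DO dimer, an inhibitor of DM known from B cells and dendritic cells. BOLA-DOA has a single probe, with 538 for low and 562 for high feed efficiency and a relative difference of -0.30. BOLA-DOB read 96 against 105 and 47 against 47, giving -0.37 and -0.24. The second BOLA-DOB pair shows how scaling sets the sign: equal intensities became a negative difference because the low efficiency array was brighter as a whole. BOLA-DOB had -0.15 with normexp.

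CD74, the invariant chain, has 5 probes, the most of any member. They read 5954 for low and 6236 for high feed efficiency, 5209 against 5440, 3085 against 3507, 1776 against 1918, and 296 against 382. Each was dimmer in low feed efficiency before any scaling. Relative differences ran from -0.60 to -0.30 with a mean of -0.39 ± 0.13 (SD, 5 probes). The brightest probe, which gives the gene its value, had -0.30, but -0.19 with normexp and -0.18 in the authors' deposited table.

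CTSS encodes cathepsin S, the protease that makes the last cuts in the invariant chain. Its probes read 1390 for low and 1351 for high feed efficiency, and 742 against 709. Relative differences were -0.19 and -0.17, closest to the median of all 10 members by the brightest probe. With normexp CTSS had -0.11, and the authors' deposited table gave -0.13. Its second probe crossed to the other side of the median in 1 of 13 alternatives.

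IFI30 encodes GILT, a lysosomal thiol reductase that is induced by interferon gamma and opens disulfide bonds of antigens. Its probes read 2772 for low and 3048 for high feed efficiency, and 1031 against 1436. The first gave -0.37 and the second -0.71, the lowest value of any member probe. Both lay below the lower quartile of all genes, but 0.34 apart from each other. IFI30 had -0.55 with the mean over probes, and the authors' deposited table gave -0.24.

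CIITA, the transactivator, was read near the lower end of the range. One probe read 82 on both arrays, a relative difference of -0.24, which is about the spot SD of dim probes (0.23). It had -0.15 with normexp. The other probe read 8 on both arrays, below the background limit of 10.9, and gives no fold.

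**Figure D2:**
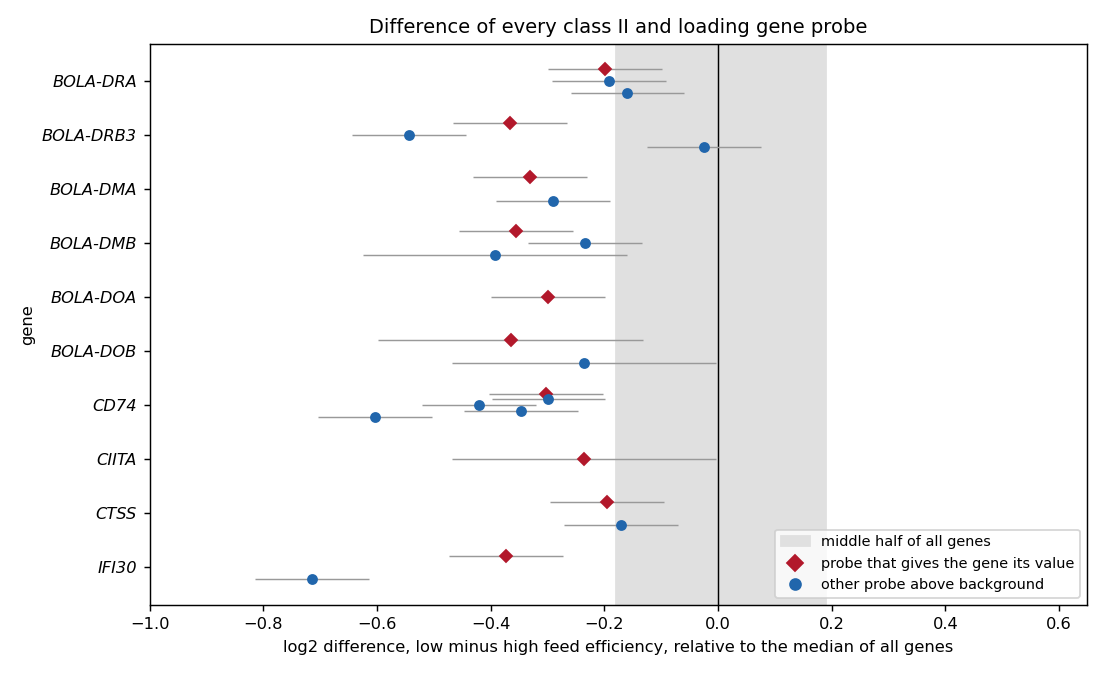
Each point is a probe, with the relative log2 difference on the x axis and the gene on the y axis; bars are 1 SD over replicate spots of other probes of like brightness. All 24 probes lie left of 0, and the BOLA-DRB3 probe at -0.02 and the IFI30 probe at -0.71 are the extremes.

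The sign of these differences depended on what they were set against. Before scaling, 15 of the 24 probes were brighter in high feed efficiency, 7 in low, and 2 were equal. The 75th percentile was 98 for low and 81 for high feed efficiency, a log2 ratio of 0.27, so genes in general were brighter on the low efficiency array. The 7 Agilent spike-in control probes above background, of 32 spots each, had scaled differences between -0.39 and -0.32. The scaled differences of the 10 members, between -0.41 and -0.23 with a median of -0.36, spanned that range. The SD over spots was 0.07 to 0.21 for 6 of the spike-in probes and 1.15 for the remaining one. When the arrays were scaled on the spike-in controls, the members' median difference was -0.01 with 6 of 10 below 0, and the median of all genes was 0.30. Class II genes were thus lower relative to other genes, while relative to the spike-in controls their intensity was about equal on both arrays. Whether either scale reflects RNA per volume of blood was not tested.

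Signal strength also moved with the difference. In the brightest quintile of all genes the median relative difference was -0.08 and 64.8% lay below the median of all genes. This quintile holds 7 members: BOLA-DRA, BOLA-DRB3, BOLA-DMA, BOLA-DMB, CD74, CTSS and IFI30. Of these, 5 lay below the lower quartile of that quintile, -0.23, and BOLA-DRA and CTSS did not. In the middle quintile, which holds BOLA-DOB and CIITA, the median was 0.03, and in the next brighter one, which holds BOLA-DOA, it was -0.01. After loess normalization, which removes such a trend, the members' median was -0.27 and all 10 lay below the median of all genes.

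**Figure D3:**
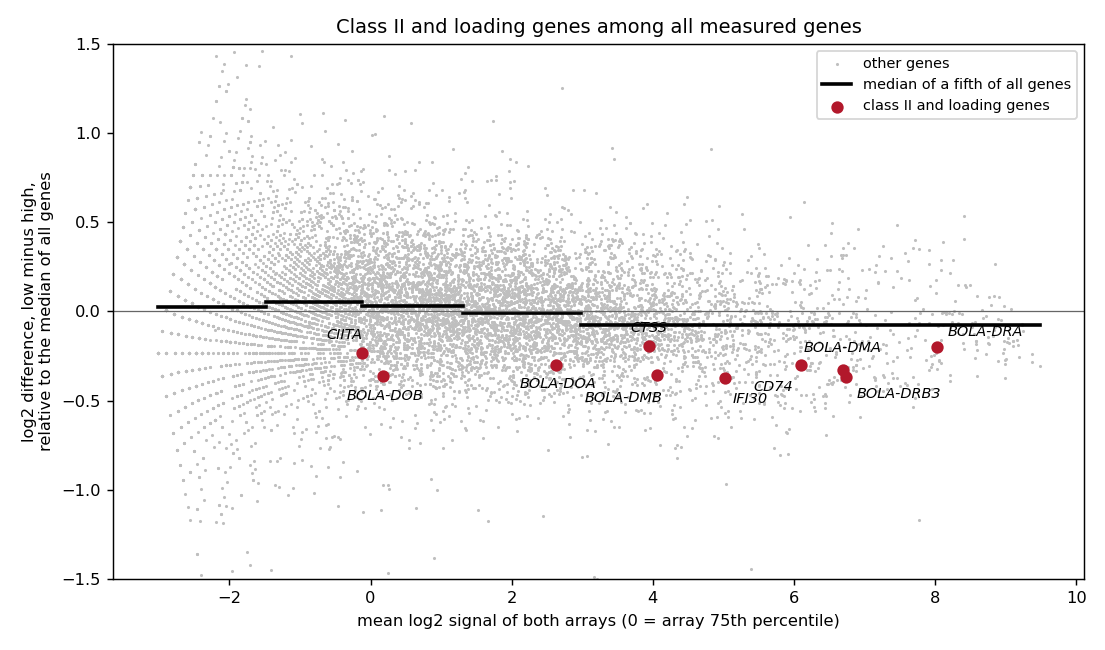
Each point is a gene, with the mean log2 signal of both arrays on the x axis and the relative log2 difference on the y axis; 13 genes lie outside the drawn range of 1.5. The black steps are medians of quintiles of all genes and fall to -0.08 at the bright end, and the 10 class II and loading genes lie below them.

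In the bovine assembly ARS-UCD2.0 the class II genes form 2 separate stretches of the same chromosome. BOLA-DOB, BOLA-DMB, BOLA-DMA and BOLA-DOA lie in the first, together with BOLA-DYA and BOLA-DYB, class II genes of ruminants. BOLA-DRB3 and BOLA-DRA lie in the second, beside the DQ genes. The DM and DO genes had relative differences between -0.37 and -0.30, and the DR genes had -0.37 and -0.20. BOLA-DYA read 3 on both arrays and BOLA-DYB 6 in low against 15 in high feed efficiency, so neither was above background on both. Of the 20 DQ probes, 12 were measured above background on both arrays, and 11 of these lay below the median of all genes, between -0.84 and -0.14. A bright BOLA-DQB1 probe, at 4622 for low against 5749 for high feed efficiency, was left out because its spot was flagged not found on the low efficiency array. The exception was BOLA-DQA5, at 587 against 16 and 4.96. A further 3 DQ probes were above background in low feed efficiency only. No member probe had such a one-sided signal.

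Of the companion lists, 3 had genes on both sides of the median of all genes. Among the transcription factors of the class II promoter and related regulators, 4 of 10 measured genes lay below the median of all genes, and their median was 0.03. RFX5, the DNA-binding subunit of the RFX complex, had -0.17 by its brightest of 4 probes, which reached 0.29, and -0.11 with normexp. NFYA, a subunit of NF-Y, had 0.25 with both probes above 0, and CREB1, which also binds class II promoters, had 0.35 with 48 for low and 32 for high feed efficiency (0.14 with normexp). Among endosomal proteases and their inhibitors 4 of 7 lay below, with a median of -0.02. CST3, which encodes the cathepsin inhibitor cystatin C, had -0.51 (8880 for low against 10746 for high feed efficiency) and -0.40 at its other probe. LGMN, an asparagine-specific protease, had -0.18 with another probe at -0.54 (-0.11 with normexp), and CTSZ, cathepsin Z, had 0.17 (0.28 with normexp).

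Turnover and traffic genes had 4 of 7 below and a median of -0.09. MARCHF8, a ubiquitin ligase that removes class II from the surface in other species, had -0.21, but its other probe had 0.58. With normexp MARCHF8 had -0.02, and its highest value over the alternatives was 0.18. RAB7A, a GTPase of late endosomes, had -0.19 with probes up to 0.24 (-0.07 with normexp), and the lysosomal membrane gene LAMP2 had 0.31 with probes down to -0.06. In the costimulation list all 4 measured genes lay below, with a median of -0.17. With normexp this held for CD40 and ICOSLG, at -0.18 and -0.16, while CD83 had 0.01 and CD86, whose other probe had 0.19, had 0.01. CD40, which receives T cell help, had -0.25 and -0.27 at its probes. CD83, a surface protein of activated dendritic cells, had -0.09, and ICOSLG, a ligand for T cells, had -0.35 close to background at 12 against 13. None of these companion genes was 2-fold apart. CTSL, CD80, MARCHF1, RFXAP and NFYB were not above background on both arrays, and CSTB had no probe.

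Marker lists of the blood cells that carry class II had medians nearer to that of all genes than the members had, and their part in the result was not tested. In whole blood, fewer cells of a type and less RNA per cell cannot be told apart. Of 11 measured B cell markers 6 lay below the median of all genes, with a median of -0.01 and summed scaled signals of 103 for low and 109 for high feed efficiency. The order of these sums rested on a single marker. PAX5 and FCRLA, genes of B cell identity, had -0.51 (-0.33 with normexp) and -0.50, and the highest marker had 0.30. Of 8 monocyte markers 5 lay below, with a median of -0.12 and sums of 303 against 346. Without FCN1 the other 7 summed to 149.8 for low against 142.1 for high feed efficiency, so the order of the sums rested on FCN1. CSF1R, the receptor for macrophage colony stimulating factor, had -0.82, and FCN1, a ficolin, had -0.37 with its other probe at -0.09. In contrast LYZ, lysozyme, had 0.35 with its other probe at -0.01, and VCAN had 0.36 (0.08 with normexp). Of 5 measured dendritic cell markers 3 lay below, with a median of -0.13 and sums of 7.88 against 9.14. CD1B had -0.61 at 17 against 22, TCF4 -0.30 and FCER1A 0.18, and with normexp they had -0.29, -0.19 and 0.08. The defining genes XCR1 and ZBTB46 read 3 against 2 and 5 against 3, which is background. The median of the B cell list was below 0 in 10 of 16 alternatives, and those of the monocyte and dendritic cell lists in 15 of 16.

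The lists for other blood cells had genes on both sides of the median of all genes, and of their genes only ALAS2 was 2-fold apart. Of 10 T cell markers 7 lay below, with a median of -0.13 and sums of 263 against 318. CD4 had -0.37 with its other probe at 0.21, LCK -0.30, and IL7R 0.83 at 44 against 21 (0.28 with normexp). Of 8 neutrophil markers 2 lay below, with a median of 0.14 and sums of 910 in low against 809 in high feed efficiency. S100A12 had 0.26, FCGR3A 0.19 (0.30 with normexp) and MMP9 -0.19 (-0.06 with normexp, and 0.13 at its other probe). The 4 measured erythroid markers had a median of 0.08 and sums of 341 against 307. HBB had 0.30 and HBA 0.17 (0.28 with normexp). ALAS2, an enzyme of heme synthesis, had -1.38 at 112 against 248, but -0.85 with normexp, which is under 2-fold. Platelet markers had a median of -0.21 over 4 genes and sums of 121 against 125, with ITGA2B at -0.41 and PPBP at 0.22. GP1BA had -0.43 near background, at 14 against 16, and -0.16 with normexp. Over the 16 alternatives the neutrophil and erythroid medians were above 0 in all, the platelet median below 0 in all, and the T cell median below 0 in 15.

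**Figure D4:**
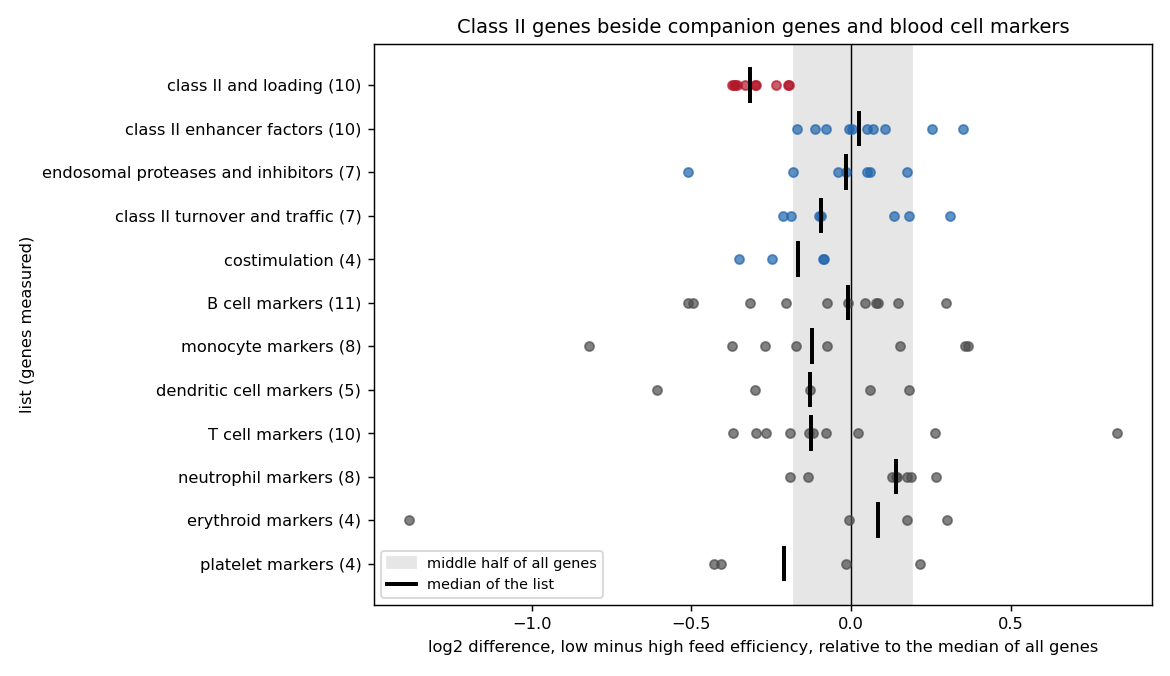
Each point is a gene, with the relative log2 difference on the x axis and the list on the y axis; numbers in brackets are genes measured and black bars are list medians. The class II and loading genes span -0.37 to -0.19, while each other list of more than 4 genes has members on both sides of 0.

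The 10 genes lay below the median of all genes under each of 16 processing alternatives. Their median relative difference ran from -0.33 with the pixel mean to -0.13 when dim probes were kept and floored at the background limit. Not every alternative could change the members. Scaling on the spike-in controls or on the detected probes leaves relative values as they are by construction. Stricter background limits, the floor and leaving out saturated spots kept the members' own values and moved only the median of all genes. The members differed in how far they moved. BOLA-DRA ranged from -0.53 to -0.02, BOLA-DRB3 from -0.67 to -0.18, IFI30 from -0.55 to -0.19 and CD74 from -0.40 to -0.12. BOLA-DMA stayed between -0.33 and -0.15 and BOLA-DMB between -0.45 and -0.17. The smallest distances from the median were those of CTSS (-0.01), BOLA-DRA (-0.02) and CIITA (-0.05), all with dim probes floored.

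**Figure D5:**
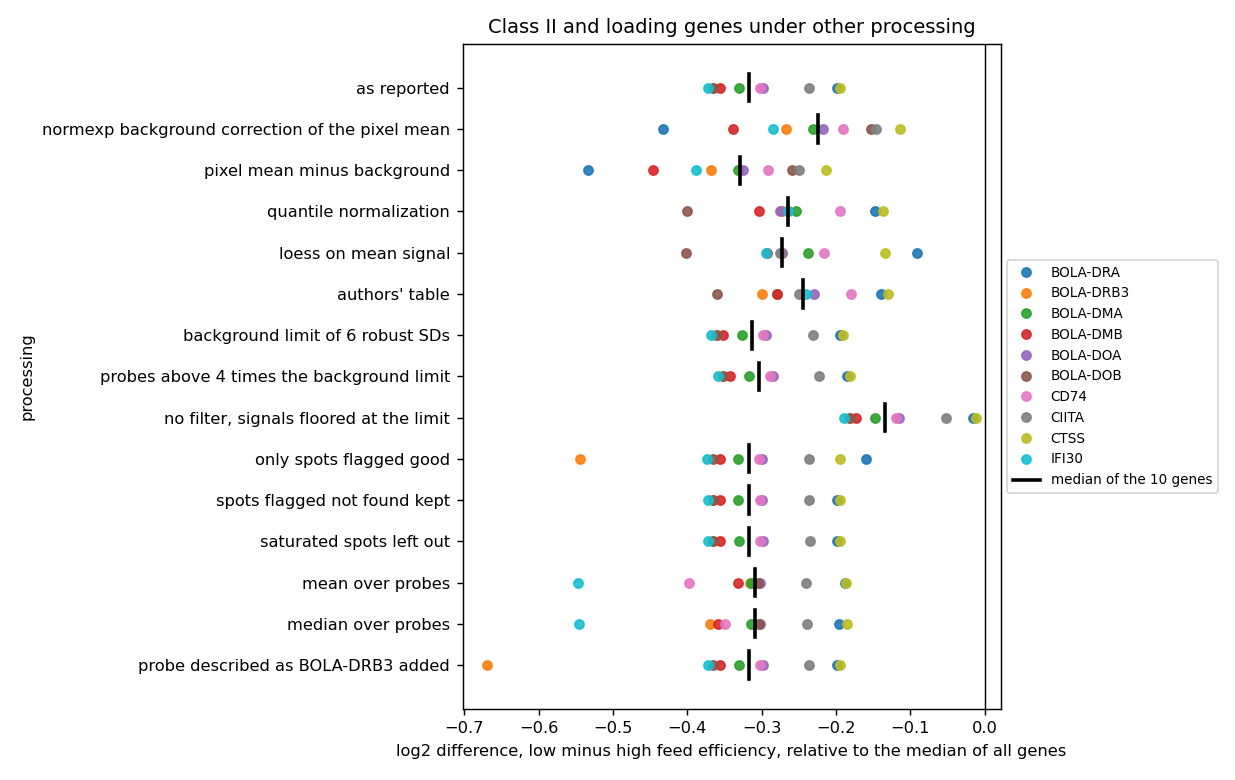
Points are the 10 genes, with the relative log2 difference on the x axis and the processing on the y axis; black bars are medians of the 10. All points lie below 0, and BOLA-DRA, BOLA-DRB3 and IFI30 change places most between rows.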

How the data were processed

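Per the file headers, the deposited intensity values came from GenePix Pro 6.1.0.4 and a GenePix 4000B scan at 532 nm, and both arrays shared 1 slide and 1 scan. Agilent Feature Extraction stands in the submitters' processing notes. The intensity used was a spot's pixel median minus the block's mean of negative controls, per the file headers. The deposited files also hold each spot's percent of pixels at saturation and a score for its flag (100 good, 0 unflagged, -50 not found). No member spot was saturated, and 20 of the 25 member probes were flagged good on both arrays.

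Control spots (1417 per array) and 558 spots flagged not found although bright were left out. Intensities were divided by the 75th percentile and taken to log2. Background was the negative control median (153 spots) plus 3 robust SDs. RefSeq accessions named 26881 of 43803 probe spots; 9136 had no name. The authors' deposited log2 table, of unstated normalization and a median of 4.34 in both columns, followed the scanner values only after its rows were moved by 1 (Spearman's rho 1.00, against 0.077 and 0.072), and served as an alternative.

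Alternatives used limma 3.58.1 for normexp (offset 50), quantile and loess normalization; others changed the pixel summary, scaling, flags, filters, fold threshold and probe summary. The median over probes and an added BOLA-DRB3 probe were chosen after seeing the data. The functions were tested on simulated data. Every member is named; in companion and marker lists up to 3 genes farthest from the median of all genes are named. Members and lists were chosen with earlier results of these data known.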

Additional observations from a re-analysis of the deposited data

Results flagged for a closer look

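A bright probe that the array describes as BOLA-DRB3 has no gene name and no RefSeq accession and fell outside the rule. It entered the comparisons only in the alternative that added it to the BOLA-DRB3 probes. It read 20126 for low and 27184 for high feed efficiency, against a background limit of 10.9, and had a relative difference of -0.67. In that alternative the probe gave the gene this value in place of -0.37, the lowest for BOLA-DRB3 over the alternatives. Before subtracting the median, the difference of the probe was -0.71, past 1.5-fold. Its spot was flagged good in high feed efficiency and unflagged in low.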

How the results depend on the processing

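Of the 16 alternatives, 15 left the median relative difference of the 10 genes within 0.10, the spot SD of bright probes, of -0.32, and flooring dim signals at the background limit, with 16888 genes measured, gave -0.13. That floor puts the median of all genes at -0.22, since dim probes at equal floors become negative after scaling. Under all 16 alternatives 10 of 10 genes lay on the lower side of the all-gene median and none was 2-fold apart, and with the processing as reported none was past a threshold of 1.5 or 4 either. Stricter background limits, the floor and leaving out saturated spots moved only the median of all genes and not the members' own values. Scaling on the spike-in controls moved the median of all genes by 0.34 and leaves relative values as they are by construction, as does scaling on the detected probes. Before subtracting the median, 4 members were then above 0: BOLA-DRA 0.10, BOLA-DOA 0.004, CIITA 0.07 and CTSS 0.11. No paired analysis was possible because each group has 1 array and the result comes from no test. No replicate could be left out. Dim probes limit BOLA-DOB and CIITA, whose intensities of 47 to 105 lie where spot SDs were 0.23.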
